A study of Mus musculus with 4 samples.

Results

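The genes described here are 41 members of the BMP, TGF-beta, activin and Nodal signalling pathways. They were taken by name, with no measured value in the rule, though the set was proposed with earlier results of these data known, and each matched 1 of the 53715 gene rows of the count table by its Ensembl identifier. They are 11 ligands, 5 antagonists (among them Inha, the inhibin alpha subunit), 11 receptors and co-receptors, 8 SMAD proteins and 6 target genes. RNA was sequenced from C57BL/6 mouse embryo cells of E12.5, isolated with magnetic beads and labelled as primordial germ cells, and 1000 cells went into each library, made by Smart-seq2, which copies whole transcripts from few cells. There were 2 libraries labelled Rif1_KO, a knockout of the chromatin and replication-timing factor Rif1, and 2 labelled WT, from wild type embryos of the same strain. The sources used here do not give the kind of Rif1 allele, the surface marker used for the beads, the sex of the embryos or whether the libraries of a label came from separate embryos, so that a p-value here reflects only how far these libraries lay apart, and that distance may be technical.

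Ligands of this superfamily are secreted dimers that bring type I and type II serine-threonine kinase receptors together. The activated type I receptor phosphorylates SMAD1, SMAD5 or SMAD9 in the BMP branch and SMAD2 or SMAD3 in the TGF-beta, activin and Nodal branch, and these enter the nucleus with the shared partner SMAD4. SMAD6 and SMAD7 inhibit the pathway, and the Id and Msx genes are widely used transcriptional readouts of BMP signalling. In the mouse, BMP signals from outside the epiblast induce the primordial germ cells, and activins, inhibins and Nodal act later in the developing gonad.

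The libraries labelled Rif1_KO held 12071903 and 14421298 counts and those labelled WT 12768932 and 11724630 counts (replicate 1, then replicate 2, here and in every pair of values). Their composition differed by label. The ribosomal RNA region took 3.87% and 7.15% of counts under the label Rif1_KO against 15.8% and 17.6% under the label WT. Haemoglobin genes took 1.08% and 0.555% against 11.8% and 8.92%. Genes with at least 10 counts numbered 15226 and 16211 against 13314 and 13566. The part of these differences in the levels below was not tested. Levels are given as CPM, counts per 1000000 of the library total scaled by TMM normalization, and 3 counts corresponded to between 0.159 and 0.322 CPM. Rif1 had 86.2 and 63.9 CPM under the label Rif1_KO against 43.7 and 4.73 CPM under the label WT. The difference was not called (edgeR log2 fold change 1.63, SE 1.01, adjusted p = 0.717). Rif1 RNA was thus not lower under the label Rif1_KO. With the kind of allele not given, a count over the whole gene cannot check the labels. Libraries are therefore called by their label throughout, and every direction is that of the labels. The 12 germ cell markers summed to 36.2 and 35.2 CPM under the label Rif1_KO and to 60.5 and 460 CPM under the label WT. Ddx4, a helicase gene and a defining marker of the labelled cell type, stood near 0 in every library but WT replicate 2. Its values were 1.05 and 0.53 CPM under the label Rif1_KO, then 0.645 and 59.2 CPM under the label WT. Other germ cell markers differed from Ddx4. Prdm14 had 19.9 and 18.4 CPM under the label WT, with 0.452 and 0.106 CPM under the label Rif1_KO. Dazl reached 13.0 CPM in WT replicate 1, Prdm1 reached 17.7 CPM in Rif1_KO replicate 2, and Dppa3 had at least 5.77 CPM in every library. Among the 12 markers, 5 were lower and 1 was higher under the label Rif1_KO without overlap, beside 18.4% and 21% of all tested genes. Pou5f1 and Nanos3, among those 5, had too few counts to be tested. Pou5f1 had 0.301 and 0.583 CPM under the label Rif1_KO against 1.20 and 0.967 CPM under the label WT. Nanos3 had 0.603 and 0.424 CPM against 0.737 and 2.26 CPM. The 9 markers of gonadal supporting cells summed to 877 and 744 CPM against 711 and 813 CPM, the 10 stromal markers to 1610 and 1300 CPM against 526 and 404 CPM, and the 11 erythroid markers to 9890 and 4270 CPM against 139000 and 113000 CPM, as the plot of marker lists shows. Of the single markers, 11 of 11 erythroid ones were lower and 9 of 10 stromal ones higher under the label Rif1_KO without overlap. Over all tested genes 18.4% were lower and 21% higher without overlap. Klf1 and Mael in Rif1_KO replicate 2 and Lum in WT replicate 2 were at 0. The part of these marker differences in the results on the signalling genes was not tested. In such bulk libraries, fewer cells of a type and less RNA per cell cannot be told apart.

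**Figure D1:**
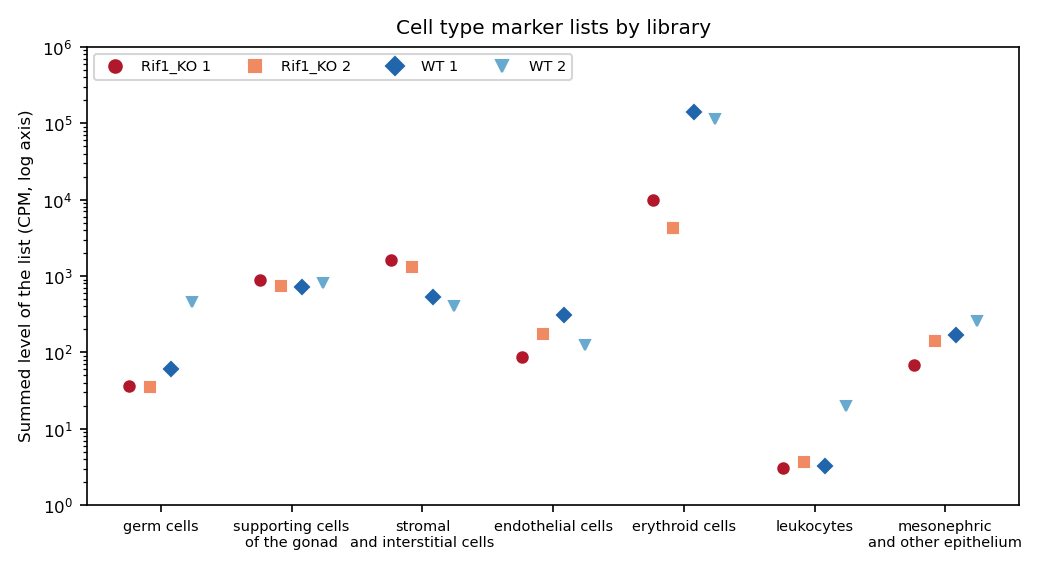
Summed level of 7 lists of cell type markers (CPM, log axis) in the 2 libraries labelled Rif1_KO and the 2 labelled WT. Erythroid sums were 9890 and 4270 CPM under the label Rif1_KO against 139000 and 113000 CPM under the label WT, and germ cell sums were highest in WT replicate 2, at 460 CPM.

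By edgeR no member of these pathways was called between the labels, and by DESeq2 only Inhbb was. Of the 41 members, 33 passed the filter on low counts and were tested. By edgeR's quasi-likelihood test with Benjamini-Hochberg adjustment over 15466 tested genes, 0 of the 33 were higher and 0 were lower in the libraries labelled Rif1_KO, where 0% and 0.0129% of all tested genes were called higher and lower. At an unadjusted edgeR p under 0.05, 1 member was higher (Smad4) and 1 was lower (Inhbb), beside 5.35% and 3.05% of all tested genes. DESeq2 called 0 members higher and 1 lower (Inhbb), beside 2.13% and 1.24% of all tested genes. The median log2 fold change of the 33 members, Rif1_KO over WT, was 0.08, beside -0.111 over all tested genes, and 18 of them (54.5%) had a fitted value above 0, beside 46.1% of all tested genes. Values did not overlap between the labels for 5 members that were higher under the label Rif1_KO (15.2% of the 33, against 21% of all tested genes) and for 6 that were lower (18.2%, against 18.4%). With TMM both shares were at or below those of the whole table. With RLE factors in place of TMM the split was 5 higher and 7 lower, beside 19.7% and 20.1% of all tested genes. Upper-quartile factors moved the median of all tested genes to 0.16, and the split was 7 higher and 5 lower, beside 26.8% and 13%. With either of these scalings the share of lower members was slightly above that of the whole table, and the share of higher members was below it. For a single value, the smallest p that an exact two-sided permutation test can reach with 2 libraries per label is 0.333.

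**Figure D2:**
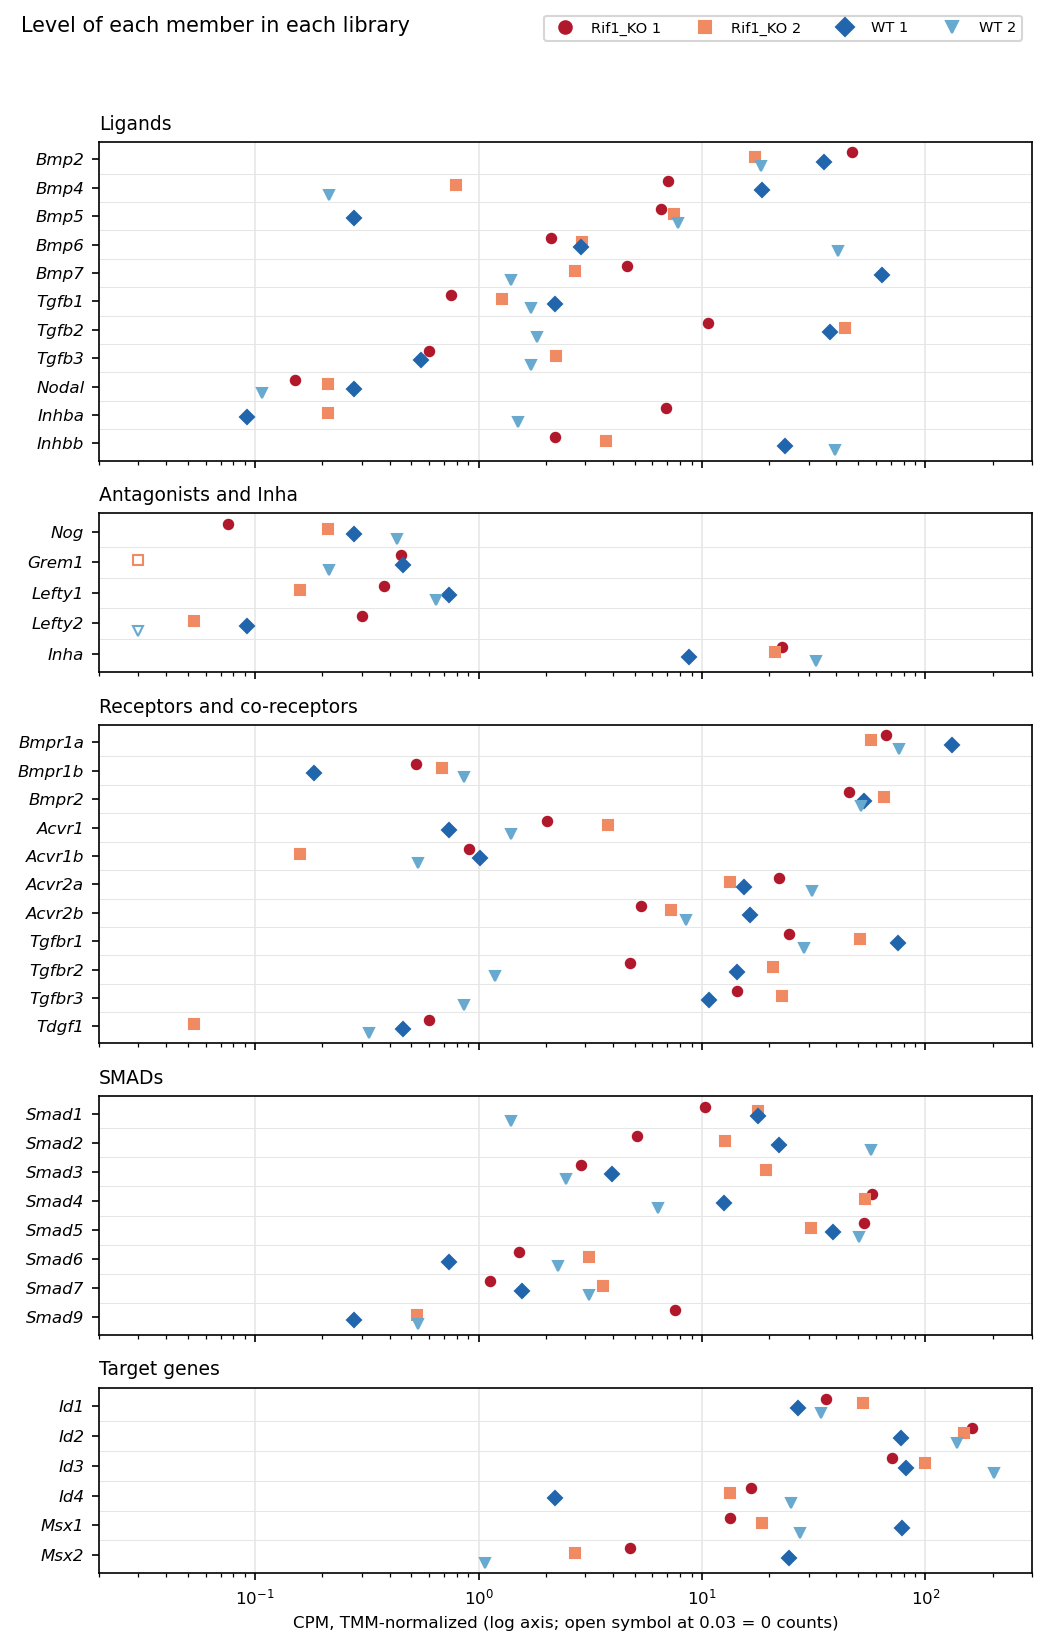
Level of each of the 41 members in each library (CPM, log axis; an open symbol marks 0 counts), with the libraries labelled Rif1_KO in red tones and those labelled WT in blue tones. Inhbb and Smad4 separate the labels, at 2.19 and 3.71 CPM against 23.5 and 39.4 CPM for Inhbb and at 57.9 and 53.9 CPM against 12.6 and 6.34 CPM for Smad4, while Bmp4, Bmp7 and Tgfb2 lie far apart within the label WT.

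Among the ligands none was called by edgeR, and Inhbb and Tgfb1 were the ones whose values did not overlap between the labels, both lower under the label Rif1_KO. Inhbb, which encodes the beta B subunit of activin B and inhibin B (ENSMUSG00000037035.5, mm10 chromosome 1, 119415465 to 119422248, minus strand), had 29 and 70 counts in the libraries labelled Rif1_KO against 255 and 367 counts in those labelled WT. These were 2.19 and 3.71 CPM against 23.5 and 39.4 CPM. Both libraries labelled Rif1_KO were below both labelled WT, and the replicates of each label were less than 2-fold apart. Inhbb averaged 2.95 ± 1.08 CPM under the label Rif1_KO and 31.5 ± 11.3 CPM under the label WT (SD, n = 2 each), with a log2 fold change of -3.41 (SE 1.19) and an edgeR adjusted p of 0.571. DESeq2 called Inhbb lower, with an adjusted p of 0.0114, and over the 12 alternative settings run the adjusted p lay between 0.0109 and 0.969. The fold change stayed between -3.78 and -2.98 in all of those settings.

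The partner subunits of Inhbb did not show the same order. Inha, whose protein pairs with a beta subunit to form inhibin and thereby opposes activin, had 22.7 and 21.2 CPM under the label Rif1_KO against 8.75 and 32.5 CPM under the label WT (edgeR log2 fold change 0.09, SE 1.06, adjusted p = 0.993). Its level under the label Rif1_KO lay between those of the WT libraries. Inhba, the beta A subunit of activin A, had 6.93 and 0.212 CPM against 0.0921 and 1.50 CPM, from 92 and 4 counts against 1 and 14 counts, and was high in Rif1_KO replicate 1 alone. Per kb of gene model, Inha stood at 15.4 and 14.4 CPM per kb and Inhbb at 0.514 and 0.871 CPM per kb under the label Rif1_KO. Under the label WT, Inha stood at 5.93 and 22.0 CPM per kb and Inhbb at 5.52 and 9.27 CPM per kb, so the 2 subunit genes were nearer in level there than under the label Rif1_KO.

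The BMP ligands differed more between the WT libraries than between the labels. Bmp7 had 4.60 and 2.70 CPM under the label Rif1_KO against 63.7 and 1.40 CPM under the label WT, that is, 691 counts in WT replicate 1 and 13 in WT replicate 2. Bmp4, the ligand that induces the germ line in the mouse embryo, had 7.08 and 0.794 CPM against 18.6 and 0.215 CPM. Both were highest in WT replicate 1 and lowest in WT replicate 2. Bmp6 ran the other way, with 2.11 and 2.91 CPM against 2.86 and 40.8 CPM, and was high in WT replicate 2 alone. Bmp5 had 6.56 and 7.47 CPM against 0.276 and 7.85 CPM and was low in WT replicate 1 alone, but 46.7% of its exon bases are shared with the gene model Gm26903, whose reads were counted for both. Bmp2 was the ligand with the highest mean level per kb over the 4 libraries, at 8.26 CPM per kb, and had 46.7 and 17.2 CPM against 35.1 and 18.4 CPM. For Bmp2 the labels overlapped, with a log2 fold change of 0.26 (SE 0.92, edgeR adjusted p = 0.972).

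For Bmp7 the log2 fold change was -3.15 (SE 1.74, edgeR adjusted p = 0.681), and it was 1.43 without WT replicate 1 and -4.12 without WT replicate 2. The direction for this gene therefore came from WT replicate 1. For Bmp6 it was -3.11 (SE 1.62, edgeR adjusted p = 0.655), and it was -0.18 without WT replicate 2. The WT libraries also differed in their marker sums, with endothelial markers at 309 and 123 CPM and mesonephric and other epithelial markers at 171 and 257 CPM beside the germ cell sums above. Under the label Rif1_KO the endothelial sums were 85.9 and 176 CPM and the epithelial sums 67.7 and 142 CPM. The epithelial sums were thus also lower under the label Rif1_KO, without overlap. The part of these differences in the BMP ligand levels was not tested.

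Of the TGF-beta ligands, Tgfb2 had the highest level and again an uneven one, with 10.6 and 43.8 CPM under the label Rif1_KO against 37.5 and 1.83 CPM under the label WT. Tgfb1 had 0.753 and 1.27 CPM against 2.21 and 1.72 CPM, without overlap, from 10 and 24 counts against 24 and 16 counts (edgeR log2 fold change -0.95, SE 0.96, adjusted p = 0.838). Tgfb3 had 0.603 and 2.22 CPM against 0.553 and 1.72 CPM. Tgfb1 differed more between the labels than between replicates and was not called, while Tgfb2 and Tgfb3 differed more between replicates. Nodal, which patterns the early embryo and acts in fetal germ cells of the mouse testis, had 2 and 4 counts against 3 and 1 counts and was not tested.

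Among the members, the antagonist genes Nog, Grem1, Lefty1 and Lefty2 were near the detection limit in all 4 libraries. The antagonist gene Fst, outside the members, was not. It had 172 and 128 CPM under the label Rif1_KO against 161 and 323 CPM under the label WT. Nog, which encodes noggin, had 1 and 4 counts under the label Rif1_KO against 3 and 4 counts under the label WT, and Grem1, which encodes gremlin, had 6 and 0 counts against 5 and 2 counts. Lefty1 and Lefty2, antagonists and targets of Nodal, had 5 and 3 counts against 8 and 6 counts, and 4 and 1 counts against 1 and 0 counts. Tdgf1, the Nodal co-receptor Cripto, had 8 and 1 counts against 5 and 3 counts. A count of 0 allows a level of up to 0.159 CPM in Rif1_KO replicate 2, as for Grem1, and of up to 0.322 CPM in WT replicate 2, as for Lefty2, with counting error alone considered. Differences in Nodal, its co-receptor and its antagonists were thus not detectable at this depth.

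The receptor genes ranged widely in level, and none was called by edgeR or DESeq2. Bmpr1a, a type I BMP receptor (ENSMUSG00000021796.15, mm10 chromosome 14, 34410734 to 34503341, minus strand), had the highest mean level among them, at 13.1 CPM per kb. It had 66.9 and 56.8 CPM under the label Rif1_KO against 132 and 76.0 CPM under the label WT, means of 61.9 ± 7.13 CPM and 104 ± 39.8 CPM (SD, n = 2 each). The labels did not overlap, and the log2 fold change of -0.75 (SE 0.50) was not called (edgeR adjusted p = 0.745). It was -0.25 without WT replicate 1 and -1.09 without WT replicate 2. With upper-quartile factors in place of TMM the labels overlapped for Bmpr1a. Bmpr2, the type II receptor of the BMPs, had 45.4 and 65.0 CPM against 52.9 and 51.5 CPM, with a log2 fold change of 0.08 (SE 0.57, edgeR adjusted p = 0.987). It lay within the spread of the replicates. Bmpr1b, the other type I BMP receptor of this set, had 7 and 13 counts against 2 and 8 counts, and per kb Bmpr1a was the higher of this pair in every library.

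The activin type II receptor genes were present in all libraries, and the type I receptor gene Acvr1b was near the detection limit. Acvr1c, a type I receptor gene for activin B outside the members, was not, and is given below. Acvr2a had 22.1 and 13.4 CPM under the label Rif1_KO against 15.5 and 31.2 CPM under the label WT. Acvr2b had 5.35 and 7.26 CPM against 16.4 and 8.49 CPM, without overlap, and a log2 fold change of -0.98 (SE 1.27, edgeR adjusted p = 0.881), which was -0.38 without WT replicate 1 and -1.37 without WT replicate 2. Neither passed the test. Acvr1b, a type I receptor for activin and Nodal, had 12 and 3 counts against 11 and 5 counts. Acvr1, a type I receptor that also serves BMPs, had 2.03 and 3.81 CPM against 0.737 and 1.40 CPM, without overlap, from 27 and 72 counts against 8 and 13 counts (edgeR log2 fold change 1.45, SE 1.10, adjusted p = 0.776).

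Among the TGF-beta receptors, Tgfbr1 had 24.6 and 50.9 CPM under the label Rif1_KO against 75.5 and 28.5 CPM under the label WT, with overlap (edgeR log2 fold change -0.46, SE 0.77, adjusted p = 0.918). Tgfbr3, the co-receptor betaglycan, had 14.3 and 22.9 CPM against 10.7 and 0.860 CPM, without overlap, and a log2 fold change of 1.69 (SE 1.51, edgeR adjusted p = 0.817). Tgfbr2, the type II receptor, had 4.75 and 20.8 CPM against 14.3 and 1.18 CPM. Tgfbr2 and Tgfbr3, like the ligand gene Tgfb2, were at their lowest in WT replicate 2. Without WT replicate 1, which leaves that library alone under the label WT, Tgfbr3 had a log2 fold change of 4.47 (edgeR adjusted p = 0.0349) and Tgfb2 one of 3.93 (edgeR adjusted p = 0.0249). Without WT replicate 2 the values were 0.81 for Tgfbr3 and -0.46 for Tgfb2, so that both calls rested on WT replicate 2.

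The SMAD genes held the member with the highest fitted fold change, which was not called. Smad4, the partner shared by both branches (ENSMUSG00000024515.13), had 769 and 1017 counts in the libraries labelled Rif1_KO against 137 and 59 counts in those labelled WT. These were 57.9 and 53.9 CPM against 12.6 and 6.34 CPM, means of 55.9 ± 2.88 CPM and 9.48 ± 4.44 CPM (SD, n = 2 each). Both libraries labelled Rif1_KO were above both labelled WT, and the Rif1_KO pair was nearly equal. Smad4 was not called at a log2 fold change of 2.56 (SE 0.84), with an edgeR adjusted p of 0.571 and a DESeq2 adjusted p of 0.0986. It lay between 2.15 and 3.19 in all 12 alternative settings, whose adjusted p lay between 0.00701 and 0.969, the lowest without WT replicate 1.

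Smad2, a receptor SMAD of the TGF-beta, activin and Nodal branch (ENSMUSG00000024563.15), ran in the opposite direction to Smad4. Its 68 and 240 counts under the label Rif1_KO and 241 and 528 counts under the label WT came to 5.12 and 12.7 CPM against 22.2 and 56.8 CPM. It averaged 8.92 ± 5.37 CPM and 39.5 ± 24.4 CPM (SD, n = 2 each), and the log2 fold change of -2.14 (SE 1.06) was not called (edgeR adjusted p = 0.636). It lay between -2.87 without Rif1_KO replicate 2 and -1.31 without WT replicate 2. The labels did not overlap, but 12.7 and 22.2 CPM, the nearest values of the 2 labels, were closer as a ratio than the replicates within either label. Smad3, its close relative, had 2.86 and 19.4 CPM against 3.96 and 2.47 CPM and was high in Rif1_KO replicate 2 alone. Per kb, Smad2 was above Smad3 in every library, though barely so in Rif1_KO replicate 2, at 1.44 and 3.58 CPM per kb against 0.517 and 3.50 CPM per kb for Smad3 under the label Rif1_KO, and at 6.26 and 16.0 CPM per kb against 0.715 and 0.446 CPM per kb for Smad3 under the label WT.

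Of the SMADs of the BMP branch, Smad5 was steady, with 53.3 and 30.9 CPM under the label Rif1_KO against 38.5 and 50.7 CPM under the label WT (edgeR log2 fold change -0.08, SE 0.67, adjusted p = 0.990). Smad1 had 10.3 and 17.8 CPM against 17.8 and 1.40 CPM and was low in WT replicate 2 alone. Smad9 had 101 and 10 counts against 3 and 5 counts, nearly all from Rif1_KO replicate 1, and was not tested because it did not reach the filter in enough libraries. Smad5 was therefore the BMP-branch SMAD gene whose level was similar in all libraries. The inhibitory SMAD genes were low, Smad6 with 1.51 and 3.12 CPM against 0.737 and 2.26 CPM and Smad7 with 1.13 and 3.60 CPM against 1.57 and 3.12 CPM. Both overlapped between the labels.

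**Figure D3:**
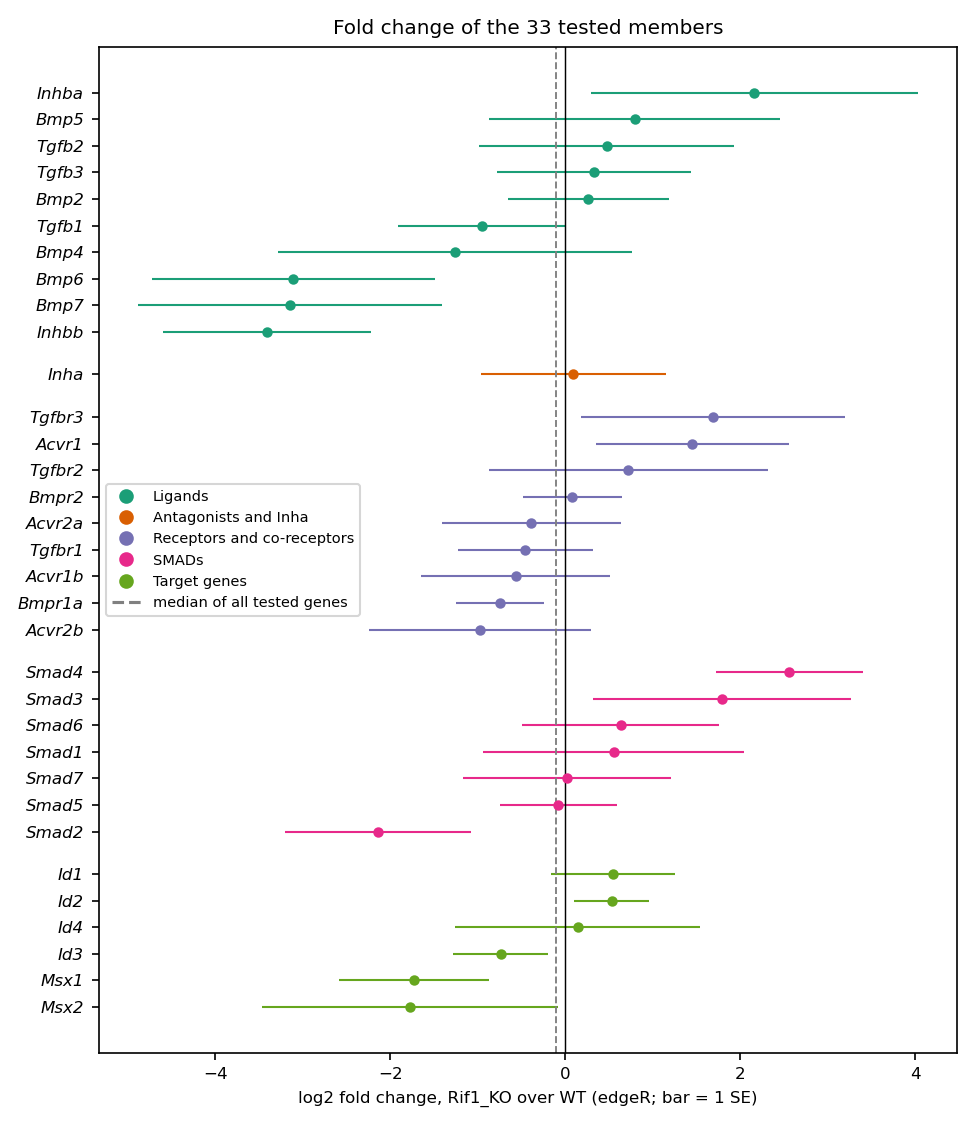
Fitted log2 fold change of the 33 tested members, Rif1_KO over WT, with bars of 1 SE, ordered within each class; the dashed line is the median of all tested genes, -0.111. Values run from -3.41 for Inhbb to 2.56 for Smad4, and no member was called by edgeR after adjustment.

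The target genes were the most abundant class per kb of gene model and showed no shared direction. Id1, Id2, Id3 and Id4 encode helix-loop-helix proteins that lack a DNA-binding region and restrain differentiation factors, and Msx1 and Msx2 encode homeobox factors that in the mouse act in meiotic entry of female germ cells. Id3 had the highest mean level, at 63.6 CPM per kb, followed by Id2 at 54.0 and Id1 at 32.1 CPM per kb. Id2 (ENSMUSG00000020644.9, mm10 chromosome 12, 25093799 to 25097140, minus strand) had 162 and 149 CPM under the label Rif1_KO against 77.8 and 138 CPM under the label WT, with a log2 fold change of 0.53 (SE 0.43, edgeR adjusted p = 0.797), which was 0.22 without WT replicate 1 and 1.01 without WT replicate 2. Id1 had 35.9 and 52.3 CPM against 26.8 and 34.0 CPM, with a log2 fold change of 0.54 (SE 0.71, edgeR adjusted p = 0.883). For Id1 and Id2 both libraries labelled Rif1_KO were above both labelled WT, by a margin smaller than the difference between the WT replicates. Id3 had 70.8 and 99.9 CPM against 81.8 and 203 CPM, with overlap (edgeR log2 fold change -0.74, SE 0.54, adjusted p = 0.765). Id4 had 16.6 and 13.3 CPM against 2.21 and 25.0 CPM and was low in WT replicate 1 alone.

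Msx1 (ENSMUSG00000048450.10, mm10 chromosome 5, 37820485 to 37824583) had 13.3 and 18.6 CPM under the label Rif1_KO against 78.5 and 27.4 CPM under the label WT, means of 16.0 ± 3.81 CPM and 53.0 ± 36.1 CPM (SD, n = 2 each). Both libraries labelled Rif1_KO were below both labelled WT, and the log2 fold change of -1.73 (SE 0.86) was not called (edgeR adjusted p = 0.636). It was -0.73 without WT replicate 1 and -2.29 without WT replicate 2, where it was called (edgeR adjusted p = 0.0322). Msx2 had 4.75 and 2.70 CPM against 24.5 and 1.07 CPM, with overlap, and its log2 fold change of -1.78 (SE 1.69, edgeR adjusted p = 0.827) was 1.83 without WT replicate 1. Like Bmp4 and Bmp7, both Msx genes were highest in WT replicate 1. The Id genes ran the other way between the WT libraries. Id1, Id2 and Id4 were lowest in WT replicate 1, and Id3 was lower there than in WT replicate 2.

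The promoter windows of Id2, Id3 and Msx1 are shown because these target genes had the highest level of the class (Id3) or values that did not overlap between the labels in opposite directions (Id2, Msx1). They are RefSeq sequences of GRCm38.p6, each 300 bases long, from 250 bases before to 50 bases after the start annotated in RefSeq. They are written 5′ to 3′ on the strand of the gene. The windows of Id2 and Id3 lie wholly inside the gene models counted here, which begin further upstream. Capitals mark GGCGCC, a GC-rich element bound by the BMP-branch SMADs that reads the same on both strands, and CAGAC on either strand, the SMAD-binding element.
Id2 (chr12:25096043-25096342, minus strand): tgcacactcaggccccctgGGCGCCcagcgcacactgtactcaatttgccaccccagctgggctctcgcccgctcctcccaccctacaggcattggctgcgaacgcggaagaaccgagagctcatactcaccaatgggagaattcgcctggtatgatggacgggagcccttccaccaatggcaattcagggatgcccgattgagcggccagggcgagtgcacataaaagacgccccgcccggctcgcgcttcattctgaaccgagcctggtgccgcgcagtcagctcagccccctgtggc
Id3 (chr4:136143572-136143871, plus strand): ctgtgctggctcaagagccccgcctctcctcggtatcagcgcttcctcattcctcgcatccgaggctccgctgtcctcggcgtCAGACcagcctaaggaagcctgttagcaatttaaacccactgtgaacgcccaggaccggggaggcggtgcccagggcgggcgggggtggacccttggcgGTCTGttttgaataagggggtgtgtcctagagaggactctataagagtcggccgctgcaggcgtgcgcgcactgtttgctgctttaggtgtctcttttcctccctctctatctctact
Msx1 (chr5:37824536-37824835, minus strand): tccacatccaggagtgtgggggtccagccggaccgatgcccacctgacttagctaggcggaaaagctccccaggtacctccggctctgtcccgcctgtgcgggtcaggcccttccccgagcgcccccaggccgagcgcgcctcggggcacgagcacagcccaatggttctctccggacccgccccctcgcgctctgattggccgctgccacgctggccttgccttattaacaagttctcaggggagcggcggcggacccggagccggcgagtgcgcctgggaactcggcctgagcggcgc
The Id2 window held 1 GGCGCC and 0 CAGAC, the Id3 window 0 and 2, and the Msx1 window 0 and 0. Of all 32851 such windows in the table, 11.9% held GGCGCC and 49.6% held CAGAC on either strand. A window was found for 30 of the 41 members, 35 windows in all, of which 28.6% held GGCGCC and 40% held CAGAC. These are matches of letters in a short window and not measured binding sites. Id1 has no entry in the table.

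Replicates of a label lay far apart for many members, as the plot of replicate ratios shows. The WT replicates were more than 4-fold apart for 11 of the 33 tested members (33.3%, beside 34.9% of all tested genes). The members were Bmp4, Bmp7, Tgfb2, Tgfbr2, Tgfbr3, Smad1 and Msx2, higher in WT replicate 1, and Bmp5, Bmp6, Inhba and Id4, higher in WT replicate 2. The Rif1_KO replicates were more than 4-fold apart for 6 members (18.2%, beside 18% of all tested genes), which were Bmp4, Tgfb2, Inhba, Tgfbr2, Acvr1b and Smad3. The larger of the replicate differences exceeded the fitted difference between the labels for 25 of the 33 (75.8%, beside 72.4% of all tested genes). All of these shares were within 4 percentage points of those of the whole table. Within the members, 6 of the 11 genes with uneven WT values were ligands. That is 60% of the 10 tested ligands, a small class, beside 34.9% of all tested genes.

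**Figure D4:**
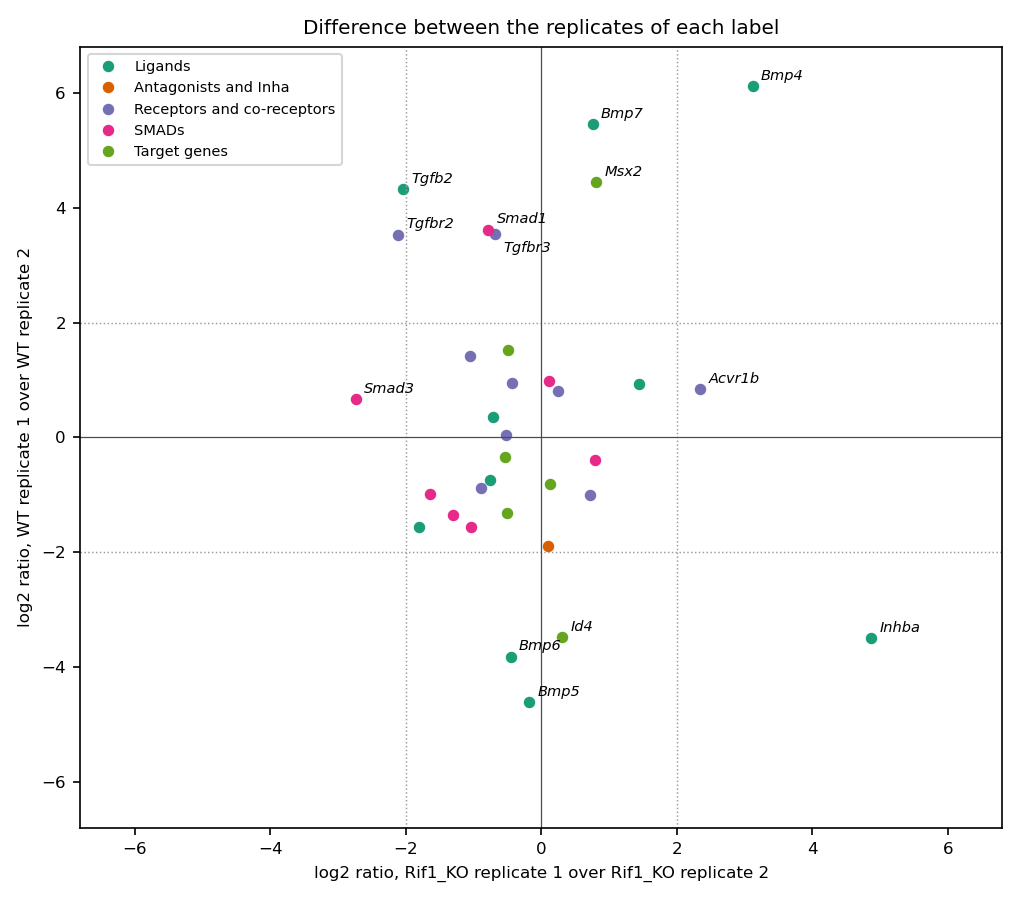
Log2 ratio of replicate 1 to replicate 2 for the 33 tested members, with 0.5 counts added, in the libraries labelled Rif1_KO (horizontal axis) and those labelled WT (vertical axis); dotted lines mark a 4-fold difference. Of the members, 11 lie beyond a line for WT and 6 for Rif1_KO, with Bmp4 at 3.12 and 6.12.

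With WT replicate 1 left out, edgeR called 6 of 35 tested members (Tgfb2, Tgfbr3 and Smad4 higher, Bmp6, Inhbb and Smad2 lower), where 7.17% of 18746 genes were called. With WT replicate 2 left out it called 2 of 35 (Bmp7 and Msx1, both lower), where 4.76% of 18687 genes were called. No member was called in both fits. In each of them the lone WT library is taken to vary like the Rif1_KO pair, so these counts are not on an equal footing with the count from all 4 libraries. With either library labelled Rif1_KO left out, 0 members were called.

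A further 82 genes of the same pathways were examined, 56 of them tested. By edgeR 0 were called in either direction, at an unadjusted edgeR p under 0.05 5 were higher and 1 was lower (5.35% and 3.05% over all tested genes), and by DESeq2 1 was higher and 2 were lower (2.13% and 1.24%). As shares of the 56, the unadjusted higher count and the DESeq2 lower count lay above those of all tested genes and the other counts below. Their median log2 fold change was -0.23. Values did not overlap between the labels for 9 that were higher (16.1%) and 9 that were lower (16.1%) under the label Rif1_KO. The shares without overlap were below those of the whole table.

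Among extracellular regulators in that list, genes with higher values under the label Rif1_KO included Fstl1 and Dcn. Fstl1, a follistatin-like secreted protein, had 500 and 431 CPM under the label Rif1_KO against 269 and 210 CPM under the label WT (edgeR log2 fold change 0.96, SE 0.31, adjusted p = 0.571). It was not called. Dcn, which encodes a proteoglycan that binds TGF-beta and is also one of the stromal markers above, had 191 and 224 CPM against 46.8 and 46.0 CPM (edgeR log2 fold change 2.16, SE 0.39, adjusted p = 0.571). Itgb8, an integrin subunit that takes part in the activation of latent TGF-beta, had 11.9 and 29.3 CPM against 2.12 and 0.752 CPM and was called higher by DESeq2 (adjusted p = 0.025) and not by edgeR (adjusted p = 0.577). Thbs1, another activator of latent TGF-beta, had 27.1 and 3.97 CPM against 1.01 and 1.50 CPM. Itgav and Zeb2 were also higher without overlap, at 56.7 and 51.4 CPM against 21.7 and 47.3 CPM, and at 11.8 and 18.7 CPM against 7.28 and 11.5 CPM.

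Genes of the list with lower values under the label Rif1_KO included ligands and an endothelial co-receptor. Gdf1, a partner of Nodal, had 1.81 and 2.49 CPM under the label Rif1_KO against 18.3 and 18.2 CPM under the label WT and was called lower by DESeq2 (adjusted p = 0.032) and not by edgeR (adjusted p = 0.601). All of its exon bases (100%) are shared with the gene models Cers1 and Upf1, so that its reads were counted for those genes too. Gdf15 had 3.99 and 0.053 CPM against 16.1 and 27.4 CPM, and Bmp8b, a BMP that takes part in germ cell induction in the mouse, had 19.4 and 26.2 CPM against 38.0 and 28.4 CPM. Neither of these was called. Eng, the endothelial TGF-beta co-receptor endoglin, itself one of the endothelial markers, had 1.66 and 6.51 CPM against 55.4 and 10.2 CPM, and Acvr1c, a type I receptor for Nodal and activin B, had 5.05 and 2.49 CPM against 10.1 and 10.1 CPM. Nrros, which anchors latent TGF-beta in myeloid cells, had 1.13 and 0.212 CPM against 52.9 and 0.752 CPM, where the DESeq2 call (adjusted p = 0.0243) came with 574 counts in WT replicate 1 and 7 in WT replicate 2. The others without overlap were Fstl3, Bgn, Tll1 and Tgif2, all with edgeR adjusted p of 0.612 or more. Of these, Fstl3 and Tgif2 share 47.3% and 61.6% of their exon bases with other gene models. Tll1 had 244 counts in WT replicate 1 and 10 in WT replicate 2.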

How the data were processed

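RNA-seq libraries of 2 Rif1_KO and 2 WT samples were given as 1 table of raw read counts per gene, which the authors deposited without normalization. Per the file headers it was made with featureCounts 1.6.2 on GENCODE M17 with the options -O, -M, -Q 30 and -p. Reads that overlap several genes were therefore counted for each, and strand was not used. Reads that map to several places were allowed by -M, but only where their mapping quality reached the minimum of 30. The submitters' processing notes name mm10, Trim Galore, HISAT2, SAMtools and FastQC. Gene symbols were taken from GENCODE M21 and RefSeq tables and matched 53620 of 53715 IDs. The 41 members and all lists were chosen with earlier results of these data known.

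Counts were scaled by TMM, filtered with filterByExpr and tested over 15466 genes with the quasi-likelihood test of edgeR 4.0.16 in R 4.3.3 (limma 3.58.1), Rif1_KO over WT without covariates, with Benjamini-Hochberg adjustment at 0.05. The common biological coefficient of variation was 0.84. Alternatives were DESeq2 1.42.0, limma-voom, RLE and upper-quartile factors, other filters, a replicate block, removal of haemoglobin, ribosomal RNA region and mitochondrial genes, and leaving out each library. CPM per kb divides by the exon length in the table. Named with the value of every library were members called by either tool, members of at least 5 CPM whose labels did not overlap, and the 2 members highest per kb in each class. Other members are given because every member is accounted for. Of the further pathway genes, 1 that met the same rule is not reported here. Of the members, 10 share exon bases with another gene model (Bmp5 most, 46.7%) and 31 share none. Intervals and the floor of 3 counts cover counting error only.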

Additional observations from a re-analysis of the deposited data

How the results depend on the processing

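Over all genes edgeR called 2, against 0 with upper-quartile factors, 0 without haemoglobin, ribosomal RNA region and mitochondrial genes, 54 with no filter on low counts, 6 with a stricter filter, 521 with DESeq2, and 5 to 1345 on leaving out 1 library. Of the members 0 were called, against 1 with DESeq2 and 0 to 6 on leaving out 1 library. Same-numbered libraries did not deviate alike (correlation of deviations -0.024), which cannot show whether they were collected or prepared together. With the replicate block 7 genes and 0 members were called. On leaving out 1 library the log2 fold change spanned -0.57 to 0.85 for Bmp2, -4.12 to 1.43 for Bmp7, -0.52 to 1.33 for Inha, -1.05 to 0.45 for Tgfbr1 and -1.2 to 0.07 for Id3, changing sign for each, and the cause was not tested. In all, 20 members changed sign on leaving out 1 library, 3 (Bmpr2, Smad5 and Smad7) with another scaling, and 13 kept their sign in every setting run. The members' median log2 fold change, 0.08 in the main fit, lay between -0.14 without Rif1_KO replicate 2 and 0.39 with no filter on low counts. Its sign was therefore not the same in every setting. Where a library was left out, the single library of that label was given the spread of the remaining pair. With 2 libraries a label, differences of low-count members (Nodal, Nog, Grem1, Lefty1, Lefty2, Bmpr1b, Tdgf1) were not detectable at this depth. A member that missed the threshold at this spread is not shown to be equal between the labels.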
